A study of Mus musculus with 4 samples.

Results

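The genes described here encode the fibroblast growth factors (FGFs), the platelet-derived growth factors (PDGFs), the vascular endothelial growth factors (VEGFs) with placental growth factor, and hepatocyte growth factor with its receptor Met. A gene was taken where its annotated symbol began as those of these families do, and its value was compared between mice with a myeloproliferative neoplasm (MPN) and a control mouse. This gave 44 of 19938 genes measured, each read by 1 probe set. They comprised 22 FGF ligands, 2 FGF binding proteins, 5 FGF receptors, 4 PDGF ligands, 2 PDGF receptors, 5 VEGF and placental growth factor ligands, Hgf and Met. The symbols also took in Fgfr1op2 and Pdgfrl, which share a prefix with the receptors but are not receptor kinases of these families. The VEGF receptors carry other symbols and are described among the related genes.

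The study concerned the nerves and stroma of the marrow niche in MPN. The MPN group was 3 C57BL/6 Nes-gfp mice analysed 10 weeks after they had received Mx1-cre;JAK2-V617F bone marrow, which carries a mutant JAK2 kinase and an interferon-inducible Cre. The control was 1 C57BL/6 Nes-gfp mouse at the same time after a transplant of control marrow, whose genotype the labels do not give further. All 4 carried green fluorescent protein driven by the nestin promoter, and CD45-, CD31-, Ter119-, GFP-positive marrow cells were isolated, so the arrays describe the cells that the reporter and the gates select in transplanted hosts. Ages and the sex of the mice are not given in the labels used here, and the titles name each array as a mouse.

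FGFs, PDGFs, VEGFs and HGF are secreted proteins that pair receptor tyrosine kinases on the target cell and so start the Ras-MAP kinase, PI3 kinase and phospholipase C gamma cascades. FGFs also need heparan sulfate chains, or a Klotho protein for the hormone-like members, to hold the receptor. In marrow, PDGF receptors mark mesenchymal stromal cells, VEGFs act mainly on the endothelium of the sinusoids, and FGFs act on stroma, bone-forming cells and blood progenitors.

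Levels are log2 values after robust multi-array averaging (RMA), and a difference is the mean of the 3 MPN arrays minus the control array on that scale. The background limit was 5.21, the 95th percentile of the mean level of 1192 olfactory and vomeronasal receptor genes. Array medians were close, at 5.15, 5.16 and 5.09 for the MPN mice and 5.13 for the control mouse. The median difference was nonetheless 0.18 over all genes and 0.25 over those background genes, and differences are to be read against that shift. Of the 16 mesenchymal markers that are not growth factor genes, such as Lepr, Cxcl12 and Kitl, 14 were lower by 2-fold or more in every MPN mouse, the exceptions being Col3a1 and Thy1. Their mean level was 6.45, 5.86 and 6.58 in MPN mice, against 9.66 in the control mouse. All 10 leukocyte markers were above the limit in both groups, although the gate selects against CD45. Their mean level was 9.82, 9.04 and 10.06 in MPN mice, against 6.91 in the control mouse, and that of 14 neutrophil markers was 10.41, 9.88 and 10.80 against 7.66. Nes itself, the source of the reporter's promoter, was under the limit on all 4 arrays (4.56, 3.92 and 4.26 in MPN mice, 4.26 in the control mouse). In such bulk samples, fewer cells of a type and less RNA per cell cannot be told apart.

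Of the 44 genes, 8 were lower by 2-fold or more in every one of the 3 MPN mice, and 0 were higher by as much. The 8 were the ligands Fgf7, Pdgfc, Pdgfd and Vegfc and the receptors Fgfr1, Fgfr2, Pdgfra and Pdgfrb. They make 18.2% of the 44 genes, where 5.78% of all genes were lower and 1.13% higher by the same rule. The other 36 genes had differences between -0.79 and 0.86. None of the 44 passed limma's test at an adjusted p of 0.05, and 0% of all genes did. At an unadjusted p under 0.05, 7 of the 44 were lower and 4 higher (15.9% and 9.09%), against 8.63% and 3.97% of all genes. Every MPN array lay below the control array for 11 of the 44 (21.1% of all genes) and above it for 21 (46.8% of all genes). Over the 1192 background genes the shares were 1.34% below and 71.2% above. With 3 arrays against 1, an exact permutation test of one gene cannot go below p = 0.25 (one-sided), and the limma fit assumes that the lone control varies as the MPN mice do. The plot of all 44 genes shows the control array far to the right of the MPN arrays for Fgf7, Fgfr2, Pdgfra, Pdgfrb, Pdgfc and Vegfc.

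**Figure D1:**
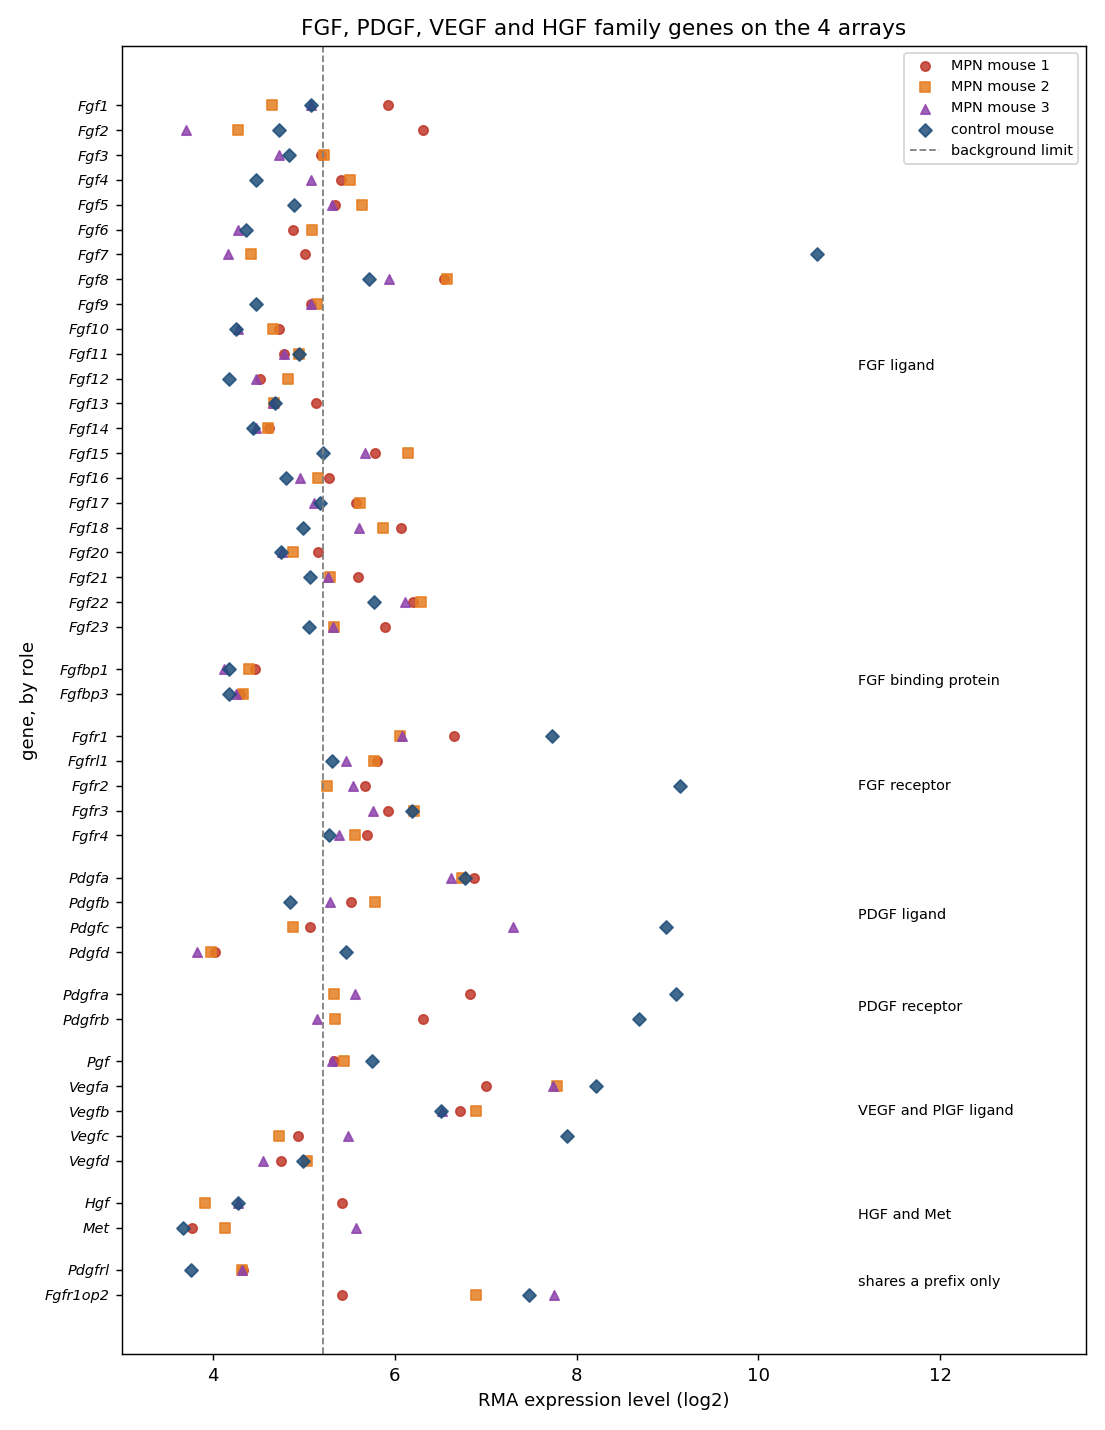
RMA expression level (log2, x axis) of the 44 genes (rows, grouped by role) on the 3 MPN arrays and the control array, 1 point per array, with the background limit of 5.21 as a dashed line. Fgf7 has 4.17 to 5.01 in MPN mice, against 10.65 in the control mouse, while most other FGF ligands lie near the limit on all 4 arrays.

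The stretch just before the transcription start is shown for 4 of the 8 genes, the FGF ligand and the FGF receptor with the largest differences, a PDGF receptor and a VEGF ligand, so that the sequence next to the start can be read beside the values. RefSeq's promoter table (GRCm38.p6) holds 34 of the 44 genes and 6 of the 8. Each line gives the 250 bases upstream of the start, 5′ to 3′ on the gene's strand, with matches in capitals. The motifs searched, on both strands, were the GC box GGGCGG, the CCAAT box (these 5 letters) and the TATA box TATAAA.
Fgf7 (chr2:126034408-126034657, plus strand): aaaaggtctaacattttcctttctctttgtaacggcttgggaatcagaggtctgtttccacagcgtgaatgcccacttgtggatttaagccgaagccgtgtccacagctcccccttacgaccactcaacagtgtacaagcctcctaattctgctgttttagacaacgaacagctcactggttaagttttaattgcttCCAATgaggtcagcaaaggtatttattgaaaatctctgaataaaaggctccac
Fgfr2 (chr7:130266809-130267058, minus strand): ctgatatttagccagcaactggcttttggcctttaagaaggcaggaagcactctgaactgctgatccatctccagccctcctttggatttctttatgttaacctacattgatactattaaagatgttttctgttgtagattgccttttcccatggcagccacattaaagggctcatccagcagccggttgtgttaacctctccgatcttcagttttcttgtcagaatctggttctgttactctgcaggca
Pdgfra (chr5:75152001-75152250, plus strand): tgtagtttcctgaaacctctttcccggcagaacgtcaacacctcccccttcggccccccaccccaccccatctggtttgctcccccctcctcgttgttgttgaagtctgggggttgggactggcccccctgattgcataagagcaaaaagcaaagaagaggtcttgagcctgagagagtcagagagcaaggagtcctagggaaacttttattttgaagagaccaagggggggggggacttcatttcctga
Vegfc (chr8:54077282-54077531, plus strand): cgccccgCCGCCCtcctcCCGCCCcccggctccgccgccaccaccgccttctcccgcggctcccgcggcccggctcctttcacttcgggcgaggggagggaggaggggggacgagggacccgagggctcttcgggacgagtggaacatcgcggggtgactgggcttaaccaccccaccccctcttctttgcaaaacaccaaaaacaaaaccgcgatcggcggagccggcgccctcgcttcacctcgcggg
The Vegfc stretch was 71.6% G and C, against 54.4% for Pdgfra, 44.0% for Fgfr2, 43.6% for Fgf7 and a median of 52.4% over the 32851 stretches of the table. It held 2 GC box matches, and the Fgf7 stretch held 1 CCAAT match. The Fgfr2 and Pdgfra stretches held no match to the 3 motifs, which says only that these letters are not in these windows. Over the whole table, 32.7% of stretches held a GC box, 33.8% a CCAAT box and 12.4% a TATA box.

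Fgf7, also called keratinocyte growth factor, is a paracrine FGF that mesenchymal cells release. Fgf7 was at 5.01, 4.41 and 4.17 in MPN mice, against 10.65 in the control mouse. It was well above the background limit on the control array and under it on every MPN array. The difference was -6.12 (SE 0.41, limma adjusted p = 0.0871), a size that rests on MPN values at background. With the MPN arrays set at the limit, Fgf7 was at least 43.5-fold lower in MPN mice.

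The other 21 FGF ligands had little room for a drop of this kind, since only 3 of them (Fgf8, Fgf15 and Fgf22) were above the limit on the control array. Their levels ran between 3.70 and 6.57 in MPN mice, against between 4.17 and 5.77 in the control mouse, and 11 of them were under the limit in both groups. Their median difference was 0.33, beside 0.25 for the background genes and 0.18 for all genes. Of the 21 differences, 20 were above 0, and 14 were above the median of the background genes. With each array shifted so that the olfactory and vomeronasal genes share a median, the ligands' median was 0.07. None was 2-fold apart on each MPN array in either direction.

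Fgf2, the basic FGF of stroma and endothelium, was at 6.31, 4.28 and 3.70 in MPN mice, against 4.72 in the control mouse. Only MPN mouse 1 was above the limit, and the groups overlap. Fgf1, the acidic FGF, was likewise highest in MPN mouse 1, with 5.92, 4.64 and 5.07 in MPN mice, against 5.07 in the control mouse. Fgf10, a mesenchymal ligand of the same subfamily as Fgf7, was at 4.73, 4.66 and 4.27 in MPN mice and 4.25 in the control mouse, under the limit on all 4 arrays. The difference of Fgf10 was 0.30 (SE 0.26, 95% interval -0.48 to 1.08). Fgf22, of that subfamily too, had 6.20, 6.28 and 6.11 in MPN mice and 5.77 in the control mouse, with every MPN array above the control. Fgf3, Fgf6, Fgf16 and Fgf20 were under the limit in both groups, and Fgf5 passed it in the MPN mean alone, with a difference of 0.54.

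The ligands of the Fgf8 subfamily, which pattern the embryo and, through Fgf18, act on cartilage and bone, lay near or just above the limit. Fgf18 was at 6.07, 5.86 and 5.61 in MPN mice, against 4.99 in the control mouse, the highest difference of the 44 genes at 0.86 (SE 0.25, limma adjusted p = 0.352). All 3 MPN arrays were above the control array, as they were for 71.2% of the background genes. Fgf8 was at 6.53, 6.57 and 5.94 in MPN mice and 5.71 in the control mouse, and Fgf17 at 5.57, 5.62 and 5.11 against 5.17, where the groups overlap. Fgf4, an FGF of early embryos, and Fgf9, a ligand of epithelia and mesenchyme, had differences of 0.85 (SE 0.25) and 0.63 (SE 0.15). Together with Fgf18 and Pdgfrl, these were the 4 genes higher at an unadjusted p under 0.05, named after their values were seen. Fgf9 and Pdgfrl were under the limit in both groups, with Pdgfrl at 4.33, 4.31 and 4.31 in MPN mice and 3.75 in the control mouse, and the control level of Fgf4 was 4.47.

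The hormone-like FGFs lay at or just under the limit in the control mouse. Fgf23, which osteocytes secrete to make the kidney excrete phosphate, was at 5.89, 5.33 and 5.32 in MPN mice, against 5.05 in the control mouse. Fgf21, a metabolic hormone of the liver, was at 5.59, 5.28 and 5.26 in MPN mice and 5.07 in the control mouse. Fgf15, the bile acid signal of the mouse intestine, was at 5.78, 6.15 and 5.67 in MPN mice and 5.21 in the control mouse. In these 3 genes every MPN array lay above the control array, as it did for 71.2% of the background genes. The differences were 0.46, 0.31 and 0.65, beside a median of 0.25 for the background genes. The intracellular FGFs Fgf11 to Fgf14, which bind sodium channels and no receptor, were under the limit in both groups with differences from -0.11 to 0.43. The binding proteins Fgfbp1 and Fgfbp3, carriers that release FGFs from the matrix, were also under it, at 0.15 and 0.11.

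Among the FGF receptors, Fgfr2 and Fgfr1 were lower in MPN mice and the other 3 stayed within 0.37 of the control. Fgfr2, one splice form of which is the receptor of Fgf7, was at 5.67, 5.26 and 5.54 in MPN mice, against 9.14 in the control mouse. The MPN arrays lay within 0.42 of each other, close above the limit, and far below the control. The difference was -3.65 (SE 0.24, limma adjusted p = 0.0871), a level 12.6-fold lower. Its 1 probe set gives no level for the splice forms.

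Fgfr1, the receptor form most used by mesenchymal cells, was at 6.66, 6.06 and 6.07 in MPN mice, against 7.72 in the control mouse. The difference was -1.46 (SE 0.34, limma adjusted p = 0.267). It was the gene closest to the 2-fold line, with a difference of -1.07 for MPN mouse 1. It no longer met the rule after repeated quantile normalisation or cyclic loess, where that mouse's difference was -0.60 and -0.94.

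Fgfr3, a brake on cartilage growth, was at 5.92, 6.21 and 5.75 in MPN mice, against 6.18 in the control mouse, so the groups overlap. Fgfr4, the receptor of liver and muscle, was at 5.69, 5.56 and 5.38 in MPN mice and 5.28 in the control mouse. Fgfrl1, a receptor without a kinase domain, was at 5.80, 5.77 and 5.46 against 5.31. The 95% intervals of these differences were -0.97 to 0.53 for Fgfr3, -0.33 to 0.86 for Fgfr4 and -0.30 to 1.03 for Fgfrl1. The control levels of Fgfr4 and Fgfrl1 lay close above the limit and that of Fgfr3 within 1 log2 unit of it, so a drop of the size of Fgfr2's could not have been seen in these 3.

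Both PDGF receptors were lower in MPN mice, and both are themselves markers of mesenchymal stromal cells. The 10 pericyte and smooth muscle markers measured had a median difference of 0.03, and 2 of them, Rgs5 and Abcc9, were lower by the 2-fold rule. The rest lay under the limit or within 1 log2 unit of it in the control mouse, so a drop as large as that of the PDGF receptors could not have been seen. Pdgfra, the receptor of PDGF-A and PDGF-C dimers, was at 6.83, 5.33 and 5.55 in MPN mice, against 9.09 in the control mouse. Pdgfrb, the receptor of PDGF-B and PDGF-D on pericytes and stroma, was at 6.31, 5.34 and 5.14 in MPN mice and 8.68 in the control mouse. In both genes MPN mouse 1 kept the highest of the MPN levels, and no MPN array reached the control. The differences were -3.18 (SE 0.73, limma adjusted p = 0.267) and -3.09 (SE 0.57, limma adjusted p = 0.202), close to the median of -3.66 over the 16 mesenchymal markers.

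The PDGF ligands went different ways. Pdgfc, a ligand that proteases activate after secretion, was at 5.07, 4.88 and 7.30 in MPN mice, against 8.99 in the control mouse. MPN mouse 3 stood above the other 2, with a spread of 2.42 between MPN mice, and the difference was -3.24 (SE 1.20, limma adjusted p = 0.418, 95% interval -6.83 to 0.35). Pdgfd, the other ligand of that kind, was at 4.02, 3.97 and 3.82 in MPN mice and 5.46 in the control mouse. Its difference was -1.52 (SE 0.17, limma adjusted p = 0.124), but the control level lies just above the limit, and with the MPN arrays set at the limit Pdgfd was at least 1.19-fold lower. It was the 1 gene of the 8 whose bound was under 2-fold.

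Pdgfa and Pdgfb, the classical chains, were not 2-fold apart. Pdgfa was at 6.87, 6.74 and 6.62 in MPN mice, against 6.77 in the control mouse, with the control inside the MPN range. Its difference was -0.03 (SE 0.18, 95% interval -0.57 to 0.52). Pdgfb, the chain that platelets carry and endothelium uses to recruit pericytes, was at 5.52, 5.78 and 5.28 in MPN mice and 4.84 in the control mouse. All 3 MPN arrays lay above the control array, which was under the limit, so that a lower MPN level could not have been seen. The difference was 0.69 (SE 0.27, limma adjusted p = 0.429). Of the 5 megakaryocyte and platelet markers measured, 4 were above the control on every MPN array. So were 46.8% of all genes and 71.2% of the background genes. The marker that was not was Ppbp, with 4.95, 7.82 and 7.78 in MPN mice and 5.13 in the control mouse. Pf4 had 6.29, 8.35 and 5.89 against 5.03. By the 2-fold rule 0 of the 5 were higher, against 1.13% of all genes. The mean of the 5 was 5.69, 6.75 and 6.05 in MPN mice and 5.11 in the control mouse, in a sort that selects against CD45 and CD31. The part of such cells in the Pdgfb values was not tested.

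**Figure D2:**
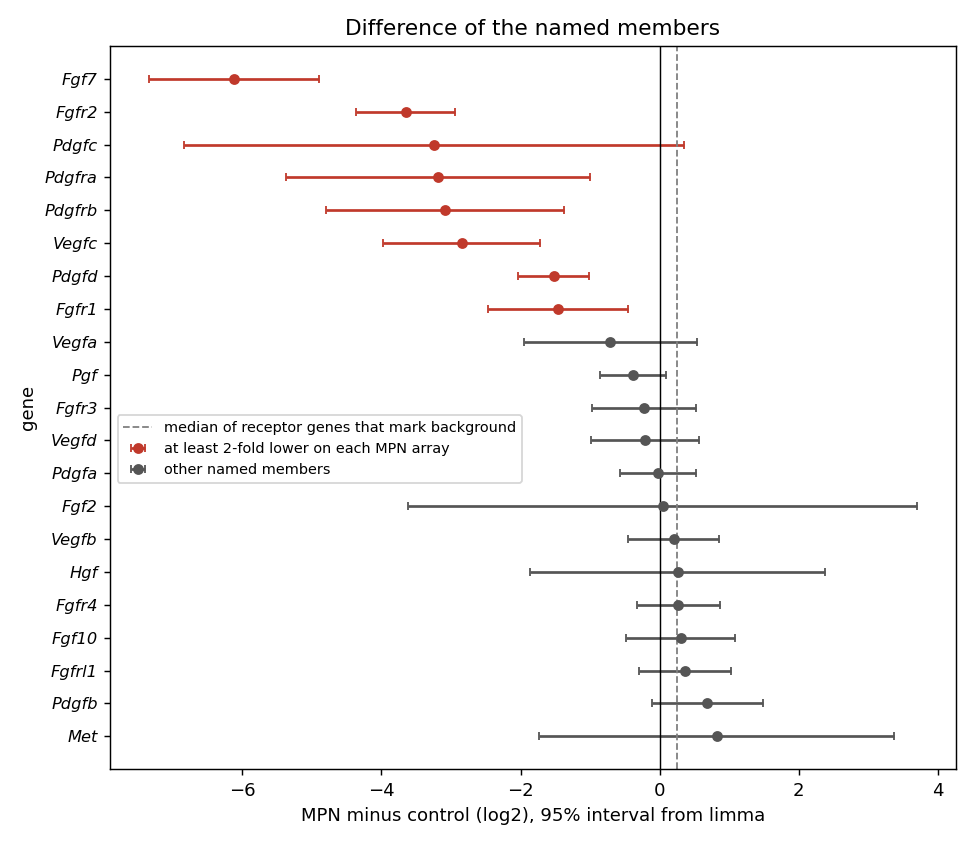
Difference between the MPN mean (n = 3) and the control array (n = 1) on the log2 scale for the 21 genes given in full, with limma's 95% interval as bars, ordered from the lowest at the top. The 8 genes lower by 2-fold or more in every MPN mouse are in red, with Fgf7 at -6.12 and Fgfr2 at -3.65.

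Among the VEGF ligands, Vegfc was lower in MPN mice, and the differences of the other 4 were under 1 log2 unit in size. Vegfc, the growth factor of lymphatic vessels and a signal of perivascular stroma, was at 4.93, 4.72 and 5.48 in MPN mice, against 7.89 in the control mouse. MPN mouse 3 was the only MPN array above the limit. The difference was -2.85 (SE 0.38, limma adjusted p = 0.141), and with MPN arrays under the limit set at it, Vegfc was at least 6.05-fold lower.

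Vegfa, the main angiogenic factor, was above the limit on all 4 arrays, with 6.997, 7.78 and 7.74 in MPN mice and 8.21 in the control mouse. All 3 MPN arrays were below the control array, with differences of -1.22, -0.43 and -0.48 for MPN mice 1, 2 and 3. The mean difference was -0.71 (SE 0.42, limma adjusted p = 0.487), and its 95% interval of -1.95 to 0.54 includes 0. Vegfb, a ligand linked to fatty acid uptake by endothelium, was at 6.72, 6.89 and 6.52 in MPN mice and 6.51 in the control mouse, a difference of 0.20 (SE 0.22). Pgf, placental growth factor, was at 5.33, 5.44 and 5.30 against 5.74, each MPN array below the control (a difference of -0.39, SE 0.16, limma adjusted p = 0.434). Vegfd, formerly Figf, was under the limit in both groups, at 4.75, 5.03 and 4.55 in MPN mice and 4.99 in the control mouse.

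Hgf, a mesenchymal factor for epithelium and liver, and Met, its receptor, had group means under the limit. MPN mouse 3 and the control mouse have the same deposited Hgf value. Hgf was at 5.41, 3.91 and 4.28 in MPN mice, against 4.28 in the control mouse. Met was at 3.77, 4.13 and 5.57 in MPN mice and 3.67 in the control mouse. One MPN mouse was above the limit for each gene, mouse 1 for Hgf and mouse 3 for Met, so ligand and receptor were not raised on the same array. Neither difference (0.26, SE 0.71 and 0.82, SE 0.86) exceeded its error. Fgfr1op2, a cytoskeletal protein outside the pathway, was at 5.42, 6.89 and 7.75 against 7.47.

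The 3 MPN mice were not alike for all genes. Across the 19938 genes, Pearson correlations between MPN mice ran from 0.872 to 0.886. MPN mouse 3 correlated with the control mouse at 0.875, and MPN mice 1 and 2 at 0.813 and 0.802. The MPN values spanned more than 1 log2 unit for 8 of the 44 genes, against a median span of 0.46 over the 44. The share of all genes with such a span was not counted. MPN mouse 1 was the highest of the 3 for Fgf1, Fgf2, Hgf, Pdgfra and Pdgfrb, and MPN mouse 3 for Pdgfc, Met and Fgfr1op2. For other lower genes the MPN arrays lay closer together, within 0.76 of each other for Vegfc, 0.84 for Fgf7 and 0.42 for Fgfr2. Fgf7 was under the limit on every MPN array, Vegfc in MPN mice 1 and 2, and Fgfr2 was close above it. RMA compresses differences near background, so these narrow spans do not show that the mice were alike. The median difference of the 8 lower genes from the control was -2.67 in MPN mouse 1, -3.55 in mouse 2 and -2.97 in mouse 3, while that of the 16 mesenchymal markers was -3.67, -4.07 and -3.07. Both medians were lowest in MPN mouse 2. The part of cell content in these differences was not tested.

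**Figure D3:**
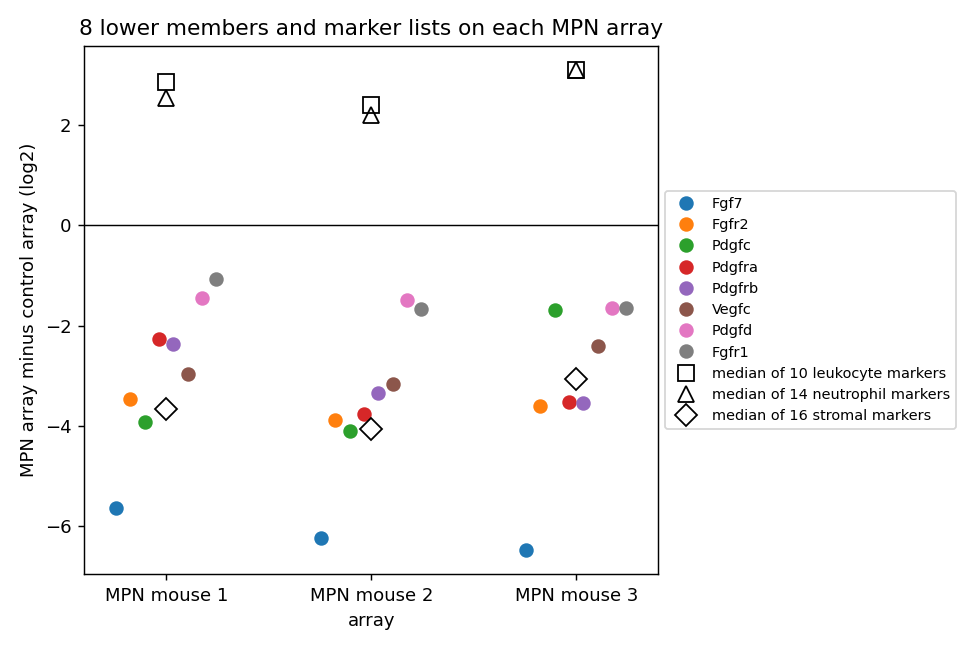
Difference from the control array (log2, y axis) of the 8 lower genes on each MPN array (filled points, offset sideways for legibility), with the median of 10 leukocyte, 14 neutrophil and 16 mesenchymal stromal markers as open symbols. Fgf7 lies between -5.64 and -6.48, and the leukocyte and neutrophil medians lie above 0 on all 3.

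Related genes of the same pathways were taken from 5 lists of co-receptors, adaptors, targets and activators, of which 55 of 57 genes had a value. By the 2-fold rule 13 of the 55 were lower (23.6%, against 5.78% of all genes) and 0 were higher (1.13% of all genes). At an unadjusted p under 0.05 in limma's test, 16 were lower and 2 higher (Grb2 and Flt4, named after their values were seen), against 8.63% and 3.97% of all genes, and 0 passed the adjusted threshold. Of the 13, 5 had an MPN mean under the limit, and with each such MPN array set at the limit 1 of them, Shc1, was under 2-fold.

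The VEGF receptors and their co-receptors differed from each other. Nrp1 and Nrp2, the neuropilins that bind VEGFs and semaphorins, were lower on each MPN array. Nrp2 was at 5.76, 6.04 and 5.55 in MPN mice and 9.48 in the control mouse, a difference of -3.69 (SE 0.26, limma adjusted p = 0.0871). Nrp1 was at 5.17, 5.92 and 6.14 in MPN mice and 8.23 in the control mouse (-2.49, SE 0.47). The kinase receptors Flt1, Kdr and Flt4 had differences of 0.48, 0.34 and 0.65, and Kdr and Flt4 were under the limit in both groups. All 3 were under it on the control array, so a lower MPN level could not have been seen. Flt1 and Kdr stand in the endothelial marker list. The mean level of that list was 5.17, 5.21 and 4.93 in MPN mice, against 4.68 in the control mouse. It was under the limit in the control mouse and in MPN mice 1 and 3, and at the limit in MPN mouse 2. The gate selects against the endothelial protein CD31.

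Of 20 genes for co-receptors and heparan sulfate, the sugar chain that FGFs need, 4 were lower by the 2-fold rule. Sdc2, a core protein that carries such chains, was at 4.33, 3.74 and 6.05 in MPN mice and 9.04 in the control mouse (-4.34, SE 1.08, or at least 11.8-fold lower by the limit). Sulf1, which removes sulfate groups from the chains, was at 5.57, 5.74 and 5.45 against 8.33 (-2.74, SE 0.19). Gpc4, another core protein, was at 5.72, 5.23 and 5.59 against 7.90 (-2.38, SE 0.27), and Ext1, a polymerase of the chain, at 5.66, 5.75 and 5.87 against 8.04 (-2.28, SE 0.17). Kl and Klb, the Klotho co-receptors of the hormone-like FGFs, were under the limit in both groups. Hs2st1, a sulfotransferase of the chain, had a difference of -1.06 (SE 0.23) and was not 2-fold lower on each MPN array. The list's median difference was -0.27, beside 0.18 over all genes.

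Of 10 receptor adaptors, 4 were lower by the 2-fold rule and 0 higher, and their median difference was -1.49. Plcg1, the phospholipase that receptors recruit, was at 5.03, 5.27 and 4.85 in MPN mice and 6.72 in the control mouse (-1.67, SE 0.24, or at least 2.82-fold lower by the limit). Shc1, an adaptor to Ras, was at 4.28, 4.21 and 4.55 against 5.88 (-1.54, SE 0.22), but with its MPN arrays, all under the limit, set at it, Shc1 was at least 1.60-fold lower. Gab1, a docking protein, was at 6.43, 6.39 and 5.37 against 7.74 (-1.67, SE 0.55), and Pik3r1, a regulatory subunit of PI3 kinase, at 8.43, 5.38 and 8.01 against 9.55 (-2.28, SE 1.47). MPN mouse 2 lay far below the other MPN mice for Pik3r1. Of the others, 3 were above the control on every MPN array. Ptpn11, the phosphatase SHP2, was at 9.09, 8.74 and 7.79 in MPN mice and 7.47 in the control mouse (1.07, SE 0.61), and the differences were 0.98 (SE 0.30) for Grb2, the adaptor that brings Sos1 to receptors, and 0.75 (SE 0.28) for Frs3, a docking protein of FGF receptors. Sos1, Nck1 and Crk had differences of -1.71 (SE 0.75), -1.44 (SE 0.80) and -1.12 (SE 0.56) without being 2-fold lower on each MPN array. Sos1 was under the limit in MPN mice 1 and 2 (4.20 and 4.35), and Nck1 in mouse 2 (4.51). The sizes of both differences thus rest in part on values at background. Adaptors serve many receptors and are used in blood cells too.

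Of 14 FGF feedback and target genes, 3 were lower by the 2-fold rule. Flrt2, a membrane protein that binds FGF receptors, was at 4.78, 4.47 and 4.42 in MPN mice and 7.45 in the control mouse (-2.89, SE 0.22, or at least 4.73-fold lower by the limit). Spred2, an inhibitor of the Ras-MAP kinase cascade, was at 4.72, 4.69 and 5.99 in MPN mice and 7.82 in the control mouse (-2.69, SE 0.67, or at least 5.12-fold lower by the limit). Spred1, of the same kind, was at 6.70, 5.08 and 5.40 against 7.98 (-2.25, SE 0.78). The feedback genes most often read as FGF targets were not 2-fold apart by the rule. Dusp6, a phosphatase of ERK, had 6.45, 6.06 and 7.14 in MPN mice and 7.72 in the control mouse (-1.17, SE 0.51), and the differences were -0.64 for Spry4 and Etv5, 0.59 for Etv4 and 0.30 for Spry2. In the control mouse Spry4 was at 5.80, Etv5 at 5.68, Etv4 at 5.25 and Spry2 at 6.04, each within 1 log2 unit of the limit. A 2-fold drop that stayed above the limit could not have been seen in these genes, while Dusp6 had room for one. The list's median difference was -0.51. Of 6 genes for HGF activation, 0 were 2-fold apart and the median was 0.44, beside 0.25 for the background genes.

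**Figure D4:**
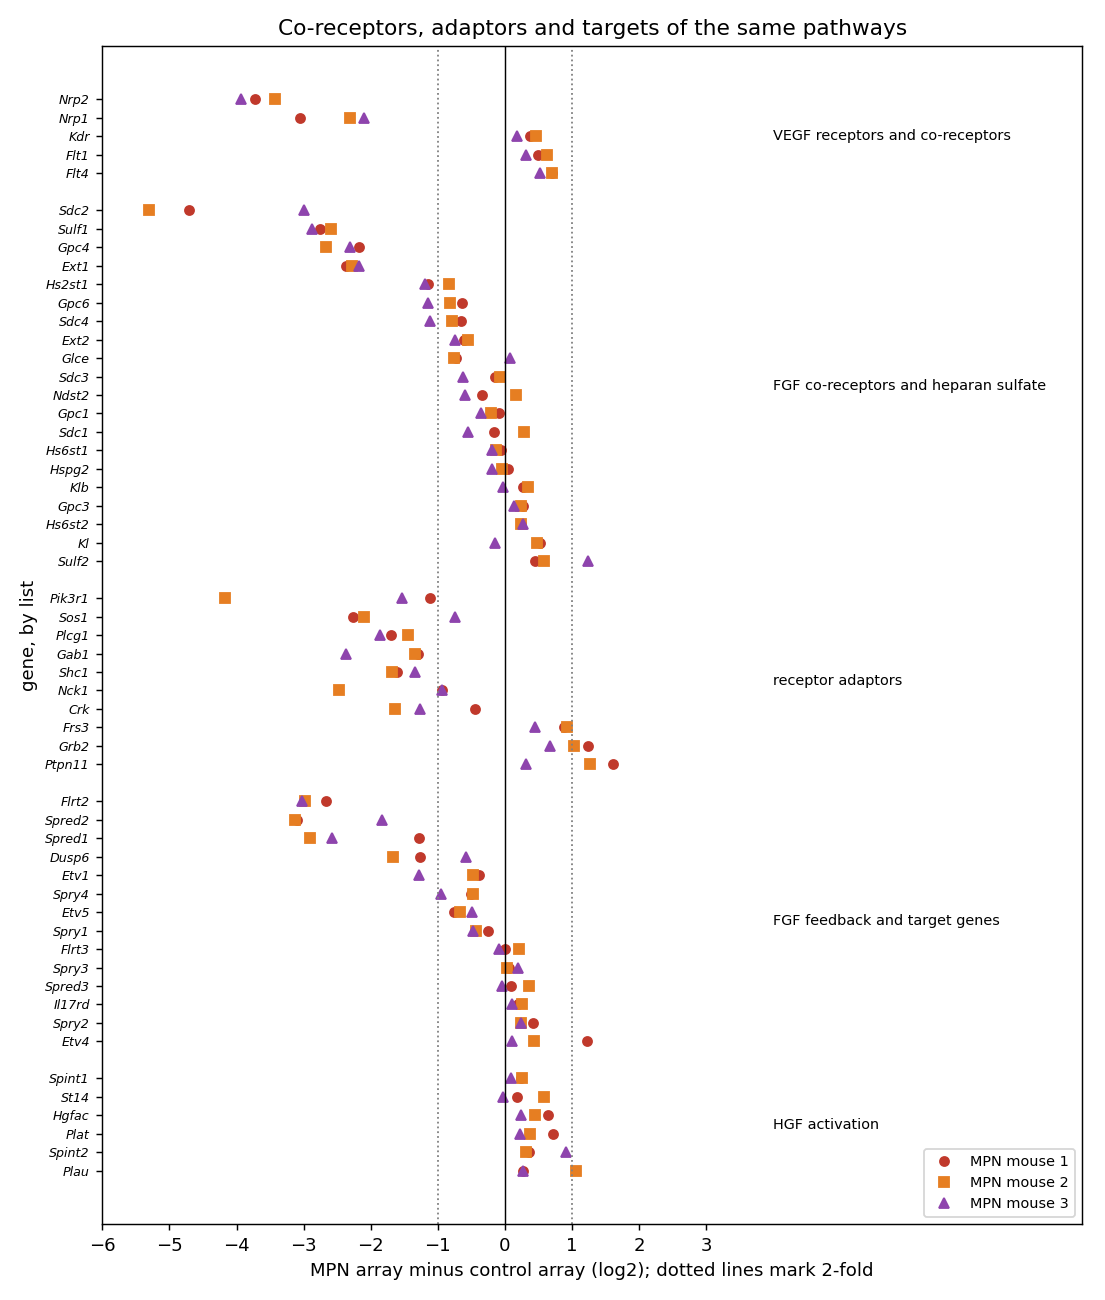
Difference of each MPN array from the control array (log2, x axis) for 55 related genes (rows, grouped by list), 1 symbol per MPN mouse, with dotted lines at 2-fold. All 3 symbols lie left of the lower dotted line for 13 genes, among them Nrp2, Sdc2, Sulf1 and Flrt2, and right of the upper one for 0.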

How the data were processed

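Expression was measured on Affymetrix mouse gene arrays in 3 MPN mice and 1 control mouse, from RNA amplified with the NuGEN Ovation system, per the labels' protocols. The deposited log2 values were made by the authors with RMA, per the submitters' processing notes; its version is not given in the sources used here. RMA normalises arrays to one distribution and compresses differences near background. There is no read depth, and precision is limited by having 4 arrays.

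Of 35556 probe sets, 21789 have 1 symbol in the platform's table, 1621 several and 12146 none there. Each of 19938 genes was read from its brightest probe set by mean over arrays. Of the 44 growth factor genes, 5 had identical values on 2 or more arrays and 2 had the same value on an MPN array and the control array. Differences were tested with limma (version 3.58.1, R version 4.3.3) through lmFit and eBayes with a two-sided p, and p-values were adjusted by Benjamini-Hochberg across the 19938 genes. The 2 residual degrees of freedom come from the MPN mice alone, and the prior adds 1.39. The limma step was checked on simulated data with known changes, only for whether it returned their mean size. The simulated control varied as the MPN mice did, so that assumption was not tested. For a gene 2-fold lower whose MPN mean was under the limit, each MPN array was set at the higher of its value and the limit to give an "at least" fold.

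Among the 44, values on every array are given for genes above the limit in either group that were 2-fold apart on each MPN array or 1 log2 unit apart in the mean, and for 21 genes chosen by name; from the related lists, for genes 2-fold apart on each MPN array. Other genes with values were added after these were seen. The members, lists and rules were chosen with earlier results of these data known. As alternatives, 1 MPN mouse was omitted at a time, or the setting averaged probe sets, filtered low genes, changed the normalisation or the variance prior, or moved the background limit.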

Additional observations from a re-analysis of the deposited data

How the results depend on the processing

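No paired analysis was possible because the control group is 1 mouse. The count of 8 lower genes was 8 without any 1 of the MPN mice (8 to 8). It could not have fallen there, since the rule asks for every MPN array and then had fewer to meet. The share of all genes lower by the rule was 6.63%, 6.58% and 8.81% without MPN mouse 1, 2 and 3, against 5.78% with every mouse. The control mouse, on which the count rests, could not be left out. The count was 7 after repeated quantile normalisation and after cyclic loess, where Fgfr1 was lost. The share of all genes was 4.91% and 6.27% there. Under any normalisation, filter or omission run, 0 genes were 2-fold higher. Past limma's adjusted threshold there were 0 of the 44 genes higher and 0 lower, also without any 1 MPN mouse (0 to 0) and with the other priors. The exception was the receptor gene shift, which gives the olfactory and vomeronasal genes the same median on each array and where 2 were lower, Fgf7 (-6.377, adjusted p = 0.0464) and Fgfr2 (-3.91, adjusted p = 0.0475), among 153 of all genes (0.767%). Over all settings the difference of Fgf7 ran from -6.377 to -5.939 with adjusted p from 0.0464 to 0.454, and that of Fgfr2 from -3.91 to -3.507 with adjusted p from 0.0475 to 0.454. The median over the 44 genes was 0.195 as deposited, 0.106 to 0.288 when 1 MPN mouse was left out, 0.00106 after cyclic loess and -0.062 after the receptor gene shift, where the median of all genes was -0.00714 and -0.0779. That shift moves every difference by one constant, as does the shift to one median over all genes. Differences near 0 changed sign. Fgf2 was at -0.731 to 0.574 when 1 MPN mouse was left out (negative without mouse 1), -0.0107 after repeated quantile normalisation, -0.137 after cyclic loess, -0.00105 with one median over all genes and -0.213 after the receptor gene shift. Hgf was at -0.183 to 0.569 when 1 MPN mouse was left out (negative without mouse 1) and -8.167e-05 after the receptor gene shift. Pdgfa was at -0.0879 to 0.0356 when 1 MPN mouse was left out (positive without mouse 3), 0.333 after repeated quantile normalisation and 0.0757 after cyclic loess, and Vegfb at -0.056 after the receptor gene shift. The number of the 44 genes above the background limit in either group was 27, against 11964 of the 19938 genes measured. With the 90th or 99th percentile of the receptor genes as the limit, the number of the 44 was 34 or 14. The values used here carry no measure of signal over background per probe, so levels near the limit cannot be ordered.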
